A study of Mus musculus with 6 samples.

Results

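The genes described here are the 3 ASPP genes (*Ppp1r13l*, *Ppp1r13b* and *Trp53bp2*) and the 3 p53 family genes (*Trp53*, *Trp63* and *Trp73*), which were chosen by name as the deleted gene, its relatives and the transcription factors these proteins bind. They are 6 of 55367 gene names counted by RNA sequencing, and all 6 passed the filter on low counts that left 14916 genes for testing. The cells were primary keratinocytes, grown without immortalization from the skin of day 2 pups of mixed C57BL/6 and 129/Sv background, in low-calcium medium that keeps them largely undifferentiated. All cultures carried *Ppp1r13l* alleles with loxP sites (flox/flox) and a Cre recombinase fused to an oestrogen receptor domain (Cre-ERT), placed at the *Gt(ROSA)26Sor* locus and therefore not limited to keratinocytes. Each of 3 batches of cells was plated as a pair of cultures, one given tamoxifen at the change of medium after 24 h (iASPP KO) and one left untreated (iASPP WT), so that each group has 3 cultures. The tamoxifen concentration is 1 mM in the sample labels and 1 μM in the study's methods. No culture without the floxed alleles or without Cre received tamoxifen, so the drug and the deletion cannot be told apart in any difference below. Neither the labels nor the methods say how many pups made up a batch.

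ASPP proteins bind p53 and its relatives p63 and p73 through ankyrin repeats and an SH3 domain at their carboxy-terminal end. ASPP1, encoded by *Ppp1r13b*, and ASPP2, encoded by *Trp53bp2*, stimulate transcription of pro-apoptotic p53 targets, whereas iASPP, encoded by *Ppp1r13l*, is known as the inhibitory member. In the basal layer of the epidermis p63 is the lineage-defining member of the p53 family, and p53 and p73 respond to stress and DNA damage.

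The 6 libraries held 20202517 to 25157117 counts, and 3 counts in a library correspond to 0.119 to 0.148 CPM, the unit of counts after scaling every library to the same total. That floor covers counting error only, because PCR copies were not told apart. Summed CPM of 10 keratinocyte markers, among them *Krt5* and *Krt14*, lay between 24252 and 29864 in every culture. Of these 10, 1 was past the threshold and higher in iASPP WT (10%, against 1.95% of all genes tested). It was *Krt10*, a keratin of differentiating cells, with 134, 65.6 and 10.1 CPM in batches 1, 2 and 3 against 33.2, 21.8 and 9.09 CPM after tamoxifen (log2 change −1.31, adjusted p of 0.0330 by edgeR). Its groups overlapped, and the paired cultures of batch 3 were nearly level. The level of both keratins is given with the p63 targets. The fibroblast markers were high in batch 3, where the 7 genes summed to 459 CPM in the iASPP-KO culture and 676 in the control, against 34.2 to 51.9 in the cultures of the other batches. Collagen genes *Col1a2* and *Col3a1* were past the threshold, higher in iASPP WT (28.6% of the 7, against 1.95% of all genes tested). The other 5 did not pass and did not move together. On the log2 scale *Pdgfra* changed by 0.81, *Dcn* by −0.02, *Col1a1* by −0.33, *Thy1* by −0.64 and *Lum* by −1.14. In batches 1 and 2 the sum was higher in iASPP KO, at 37.2 against 34.2 and 51.9 against 45.3 CPM. In 1 culture, 1 fibroblast marker was at 0. Of 7 leukocyte markers, which summed to 14.0 to 68.4 CPM, 4 were tested. *Csf1r* was past the threshold and higher in iASPP KO (25% of those tested, against 2.17% of all genes tested), and *Cd3e* was at 0 in every culture. No marker of melanocytes (367 to 1120 CPM summed), of endothelium (3.02 to 13.0) or of simple epithelium, hair follicle and Merkel cells (55.5 to 103) passed the threshold.

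The deletion concerns exon 8 of *Ppp1r13l*, by the study's methods. The gene lies on the plus strand of chromosome 7 at 19359749 to 19378533 (GRCm38, also called mm10), and its transcript Ppp1r13l-201 has 13 exons. Exon 8 is a coding exon of 461 bases at 19372924 to 19373384. Its length leaves a remainder of 2 when divided by 3, so joining exon 7 to exon 9 shifts the reading frame. On the annotated sequence 447 whole codons precede exon 8, and after the join the new frame runs for 84 codons before it meets a stop codon in exon 10, giving 531 codons where the full transcript has 824. The carboxy-terminal part, which carries the p53-binding repeats, follows exon 8 in the full protein. After the join its bases lie in the shifted frame or past the stop codon of that frame. The first 300 bases of exon 8 are shown because they belong to the stretch taken as removed by Cre. Exons 9 (19375250 to 19375381) and 10 (19375485 to 19375618) are shown because they carry the shifted frame. Capitals mark the stop codon of that frame, which starts at base 120 of exon 10. The sequences are those of the GENCODE vM21 transcript on the same build, 5′ to 3′.
Exon 8, first 300 bases: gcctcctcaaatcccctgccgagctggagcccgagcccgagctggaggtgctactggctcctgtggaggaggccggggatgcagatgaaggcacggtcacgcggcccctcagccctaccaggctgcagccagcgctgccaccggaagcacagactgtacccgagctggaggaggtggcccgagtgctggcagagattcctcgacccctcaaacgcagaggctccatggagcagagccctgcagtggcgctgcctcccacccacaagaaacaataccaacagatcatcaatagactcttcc
Exon 9: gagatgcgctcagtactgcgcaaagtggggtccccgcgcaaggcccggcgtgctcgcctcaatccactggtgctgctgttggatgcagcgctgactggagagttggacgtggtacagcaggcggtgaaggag
Exon 10: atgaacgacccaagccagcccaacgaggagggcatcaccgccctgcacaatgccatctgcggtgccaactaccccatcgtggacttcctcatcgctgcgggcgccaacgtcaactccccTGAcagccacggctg

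**Figure D1:**
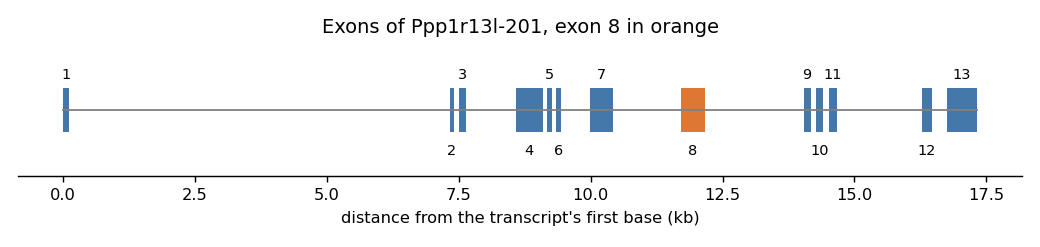
Exons of the *Ppp1r13l* transcript Ppp1r13l-201, drawn to scale against the distance from its first base in kb. Exon 8 of 13, taken as the deleted one and 461 bases long, is in orange. The exons before and after it are in blue, and all 13 belong to the exons counted for the gene.

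*Ppp1r13l* transcripts were lower in iASPP KO in every batch, and counts on the gene stayed well above the floor. The iASPP-WT cultures of batches 1, 2 and 3 had 697, 1100 and 472 counts, or 32.7, 45.1 and 21.0 CPM. The same batches had 320, 395 and 139 counts after tamoxifen, or 14.3, 17.7 and 5.91 CPM. All 3 iASPP-KO values lay below all 3 iASPP-WT values, and batch 3 was lowest in both groups. The iASPP-KO mean was 12.6 ± 6.08 CPM (SD, n = 3) and the iASPP-WT mean 32.9 ± 12.05 CPM (SD, n = 3). The fit across all genes, edgeR's quasi-likelihood model with batch as a term, put the log2 fold change at −1.45 with a standard error of 0.18 and a 95% interval of −1.86 to −1.04. That is a 2.73-fold lower level in iASPP KO, with an adjusted p of 0.0030 (edgeR, Benjamini-Hochberg over all genes tested). Within batches 1, 2 and 3 the iASPP-KO level was 43.6%, 39.3% and 28.1% of the paired iASPP-WT level. Exon 8 makes up 12.8% of the 3604 exon bases counted for the gene, so with even coverage a transcript that lost only this exon would keep 87.2% of its counts, a log2 change of −0.20. All within-batch changes, −1.19, −1.34 and −1.82, were larger than that. Because the counts are per gene, reads on exon 8 itself were not separable, and in bulk RNA fewer cells with the transcript and less transcript per cell cannot be told apart. For the protein, the paper reports by immunofluorescence that iASPP was absent from keratinocytes given tamoxifen. The RNA counts do not measure protein. No stretch of 42 bases, the read length, in the longest *Ppp1r13l* transcript occurs in a transcript of another gene.

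Across the 6 genes, 2 passed the threshold of an adjusted p under 0.05, *Ppp1r13l* and *Trp73*, both higher in iASPP WT, where 614 of 14916 tested genes (4.12%) passed in either direction, 2.17% higher in iASPP KO and 1.95% higher in iASPP WT. Since *Ppp1r13l* is the gene deleted, *Trp73* is 1 call among the 5 other genes. The fit without the batch term called no gene of the whole table, and the adjusted p was 0.973 for both genes there, with log2 fold changes of −1.38 for *Ppp1r13l* (unadjusted p of 0.0142 in the edgeR fit) and −1.65 for *Trp73* (0.00283).

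**Figure D2:**
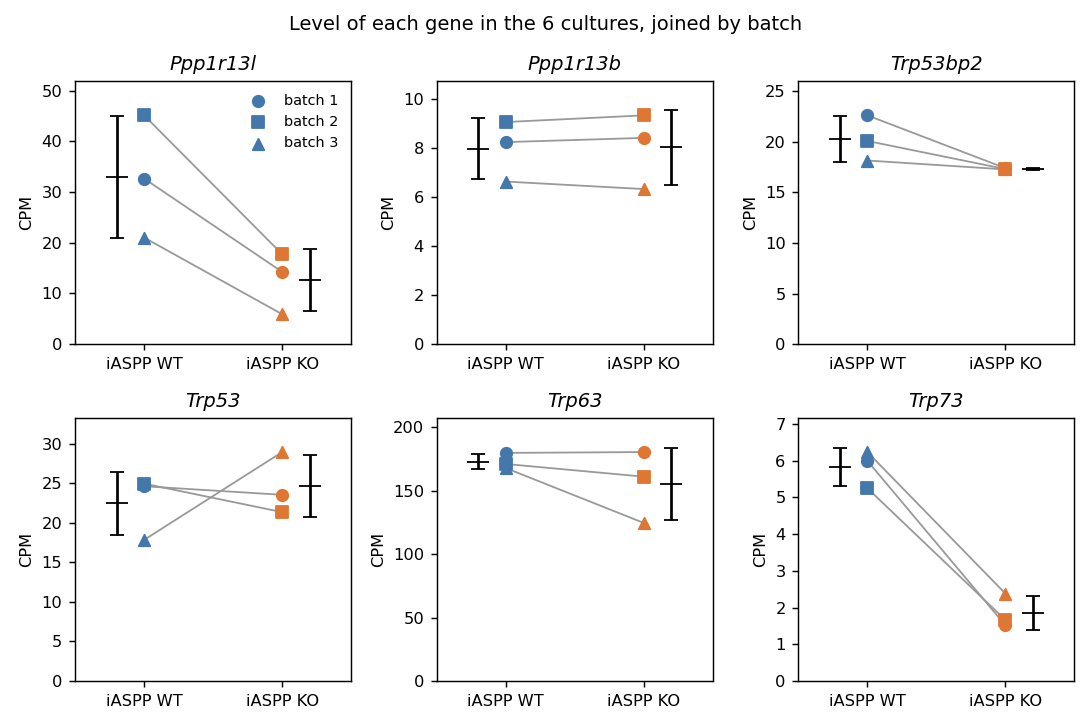
CPM of the 6 genes in each iASPP-WT (blue) and iASPP-KO (orange) culture, with lines joining the cultures of a batch and black bars giving the mean ± SD of 3 cultures. The groups are apart for *Ppp1r13l* (5.91 to 17.7 against 21.0 to 45.1 CPM) and *Trp73* (1.51 to 2.38 against 5.25 to 6.24 CPM), and the lines of *Trp53* cross.

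*Ppp1r13b*, which encodes the p53-stimulating ASPP1, was at a low and near-equal level in both groups. It lies on the minus strand of chromosome 12 at 111828457 to 111908110. The iASPP-KO cultures had 189, 208 and 149 counts, or 8.42, 9.34 and 6.33 CPM in batches 1 to 3. The paired controls had 176, 221 and 149 counts, or 8.25, 9.06 and 6.64 CPM. The groups overlapped throughout, and the spread followed the batches, with batch 2 highest and batch 3 lowest in both. On the log2 scale it changed by 0.0021, with a standard error of 0.24 and an adjusted p of 0.998 by edgeR. Its 95% interval of −0.54 to 0.54 leaves room for a change of that size in either direction.

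*Trp53bp2*, which encodes ASPP2, lies on the plus strand of chromosome 1 at 182409172 to 182462432. Its iASPP-KO cultures had 390, 385 and 406 counts, or 17.4, 17.3 and 17.2 CPM, a spread of only 0.0628 CPM (SD, n = 3). The controls had 482, 489 and 407 counts, or 22.6, 20.1 and 18.1 CPM. All 3 iASPP-KO values were thus below the lowest control, but the gap in batch 3 was under 1 CPM. The log2 fold change was −0.22 (standard error 0.17, 95% interval −0.61 to 0.17), with an adjusted p of 0.607 by edgeR, and −0.38, −0.21 and −0.07 within batches 1, 2 and 3. It was not past the threshold.

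The difference between the ASPP genes was the same in direction in each batch. In batches 1, 2 and 3 the log2 change of *Ppp1r13l* minus that of *Ppp1r13b* was −1.22, −1.39 and −1.75, and minus that of *Trp53bp2* it was −0.81, −1.13 and −1.75. With 3 pairs, exchanging the conditions within pairs cannot give a two-sided p below 0.25, so this difference was not tested.

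**Figure D3:**
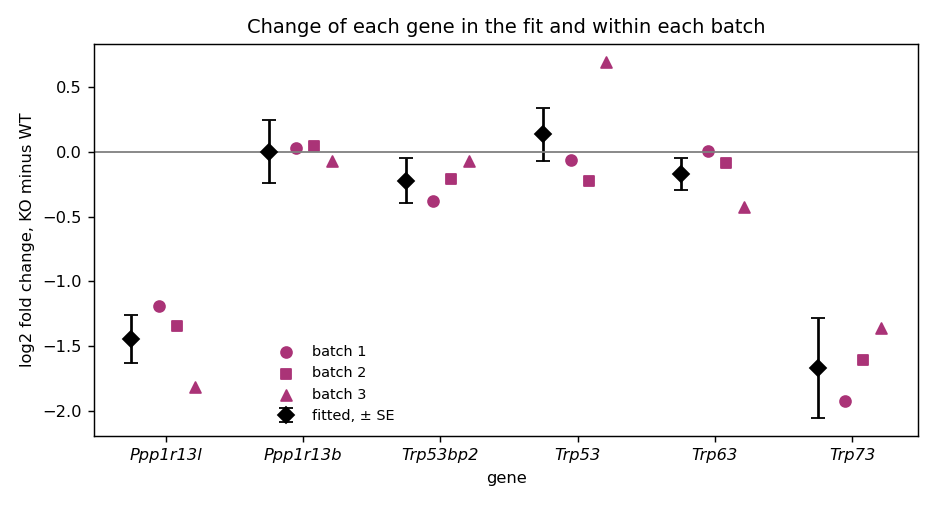
Log2 fold change (KO minus WT) of the 6 genes, as fitted with its standard error (black diamonds) and as the difference of log2 CPM within each of the 3 batches. *Ppp1r13l* and *Trp73* lie below −1 in every batch, and *Trp53* lies at −0.06, −0.22 and 0.70.

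In the p53 family, *Trp73* was the gene past the threshold. It encodes p73, lies on the minus strand of chromosome 4 at 154056249 to 154140208 and was the least abundant of the 6 genes. The iASPP-WT cultures had 128, 128 and 140 counts, or 6.00, 5.25 and 6.24 CPM. After tamoxifen 34, 37 and 56 counts were left, or 1.51, 1.66 and 2.38 CPM. The groups did not overlap, and every iASPP-KO library was above its floor of 3 counts. The mean was 1.85 ± 0.463 CPM (SD, n = 3) in iASPP KO against 5.83 ± 0.514 CPM (SD, n = 3). The fit put the change at −1.67 on the log2 scale (standard error 0.38, 95% interval −2.53 to −0.82), or 3.19-fold lower in iASPP KO. Its adjusted p was 0.0399 by edgeR and 0.0109 by DESeq2. Within batches it stood at 25.3%, 31.6% and 38.2% of the paired control. The call was lost without batch 1 (log2 fold change −1.52, adjusted p of 0.208 by edgeR) and without batch 2 (−1.67, adjusted p of 0.141), though not without batch 3 (−1.82, adjusted p of 0.00734). An antisense gene, *Trp73os*, overlaps 280 of its exon bases (5.06%) and had 0 to 6 counts per library. The counting used strand.

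*Trp63*, the gene of p63, lies on the plus strand of chromosome 16 at 25683763 to 25892102 and was the most abundant of the 6. Controls had 3838, 4171 and 3769 counts, or 180, 171 and 168 CPM, and iASPP-KO cultures 4052, 3588 and 2932 counts, or 180, 161 and 125 CPM. The paired cultures of batch 1 were level, and the iASPP-KO culture of batch 3 was the lowest of all. The log2 fold change of −0.17 (standard error 0.12, 95% interval −0.44 to 0.10) did not pass, with an adjusted p of 0.566 by edgeR, and was 0.0053, −0.09 and −0.43 in batches 1, 2 and 3. Gene counts pool the long (TA) and amino-terminally truncated (ΔN) forms of *Trp63* and *Trp73*, so a shift between forms would not show.

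*Trp53* lies on the plus strand of chromosome 11 at 69580359 to 69591873. Its cultures had 529, 476 and 682 counts in iASPP KO, or 23.6, 21.4 and 29.0 CPM. In iASPP WT they had 526, 609 and 401 counts, or 24.6, 25.0 and 17.9 CPM. Batch 3 held both the highest and the lowest value, so the groups overlapped and the batches disagreed, with log2 changes of −0.06, −0.22 and 0.70. The fitted change was 0.13 (standard error 0.20, 95% interval −0.32 to 0.58, adjusted p of 0.815 by edgeR) and turned to −0.15 without batch 3. The fibroblast markers were high in the same batch, at 37.2 to 459 CPM summed in iASPP KO and 34.2 to 676 in iASPP WT over the 3 batches. Of the 7, 2 were past the threshold and higher in iASPP WT (28.6%, against 1.95% of all genes tested), and 5 passed in neither direction. The part of these markers in the values of *Trp53* and *Trp63* was not tested. Of the 42-base stretches of the longest *Trp53* transcript, 172 of 3234 (5.32%) also occur in transcripts of other genes, 241 of them, whereas *Trp63*, *Trp73*, *Ppp1r13b* and *Trp53bp2* had no shared stretch.

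The log2 change of *Trp73* minus that of *Trp53* was −1.86, −1.39 and −2.05 in batches 1 to 3, and minus that of *Trp63* it was −1.93, −1.52 and −0.93. For *Trp53* minus *Trp63* the differences were small in batches 1 and 2, at −0.07 and −0.14, and 1.13 in batch 3.

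Levels of different genes can be compared roughly per length, as RPKM, which is CPM divided by the kilobases of merged exon. Merged exons exceed the longest transcript to a different degree per gene. They hold 8391 bases against 5366 for *Trp63*, 5538 against 5042 for *Trp73* and 3604 against 3130 for *Ppp1r13l*. RPKM is therefore lowered most for *Trp63* among these, and orders, shares and ratios between genes depend on the length used. In iASPP WT the order was *Trp63* at 20.6 ± 0.737 RPKM (SD, n = 3), *Ppp1r13l* at 9.14 ± 3.34, *Trp53* at 5.56 ± 0.993, *Trp53bp2* at 4.58 ± 0.506, *Ppp1r13b* at 1.61 ± 0.249 and *Trp73* at 1.05 ± 0.0928. Neighbours in that order overlapped between cultures for *Ppp1r13l* (5.83 to 12.5 RPKM) and *Trp53* (4.42 to 6.18), and for *Trp53* and *Trp53bp2* (4.10 to 5.11). Within each iASPP-WT culture, however, *Ppp1r13l* was above *Trp53* and *Trp53* above *Trp53bp2*. *Trp63* stood clear of *Ppp1r13l*, and *Trp53bp2* of *Ppp1r13b*. In iASPP KO *Ppp1r13l* was below *Trp53* in each culture. The means were *Trp63* at 18.5 ± 3.38 RPKM (SD, n = 3), *Trp53* at 6.09 ± 0.968, *Trp53bp2* at 3.92 ± 0.0142, *Ppp1r13l* at 3.50 ± 1.69, *Ppp1r13b* at 1.62 ± 0.311 and *Trp73* at 0.334 ± 0.0836. The values of *Ppp1r13l*, 3.95, 4.92 and 1.64 RPKM, spanned those of *Trp53bp2*, so these neighbours did not differ beyond their spread.

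Within the ASPP genes, *Ppp1r13l* supplied 57.2%, 66.3% and 51.7% of the summed RPKM in the iASPP-WT cultures of batches 1, 2 and 3. Its share was 41.3%, 45.9% and 24.0% in iASPP KO, lower in each batch. The share of *Trp53bp2* went from 30.9% ± 6.29 to 44.9% ± 10.9 (SD, n = 3), and that of *Ppp1r13b* from 10.7% ± 1.11 to 18.0% ± 0.626. As the shares of the 3 genes make up a whole, the others together must rise when that of *Ppp1r13l* falls. The mean levels of these genes did not rise in step, at 4.58 and 3.92 RPKM for *Trp53bp2* and 1.61 and 1.62 for *Ppp1r13b*. The summed level of the 3 genes was 15.3 ± 3.83 RPKM in iASPP WT and 9.04 ± 2.005 RPKM in iASPP KO. As a ratio of RPKM, *Trp53bp2* stood at 0.564, 0.363 and 0.703 of *Ppp1r13l* in iASPP WT and at 0.994, 0.795 and 2.38 in iASPP KO.

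*Trp63* made up most of the p53 family in both groups, 75.8% ± 2.23 of the summed RPKM in iASPP WT and 73.8% ± 6.66 in iASPP KO (SD, n = 3). The share of *Trp53* was 20.3% ± 2.71 and 24.8% ± 6.19, with overlapping cultures. *Trp73* held 3.79%, 3.45% and 4.41% in the iASPP-WT cultures and 0.991%, 1.21% and 1.91% in the iASPP-KO cultures, without overlap. *Trp63* was 19.8, 21.5 and 17.8 times as abundant as *Trp73* per length in iASPP WT and 78.7, 64.0 and 34.6 times in iASPP KO. The family's sum was 27.2 ± 1.55 and 24.9 ± 2.59 RPKM. No test was run on levels and shares, for the reason given for the pairs of genes.

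**Figure D4:**
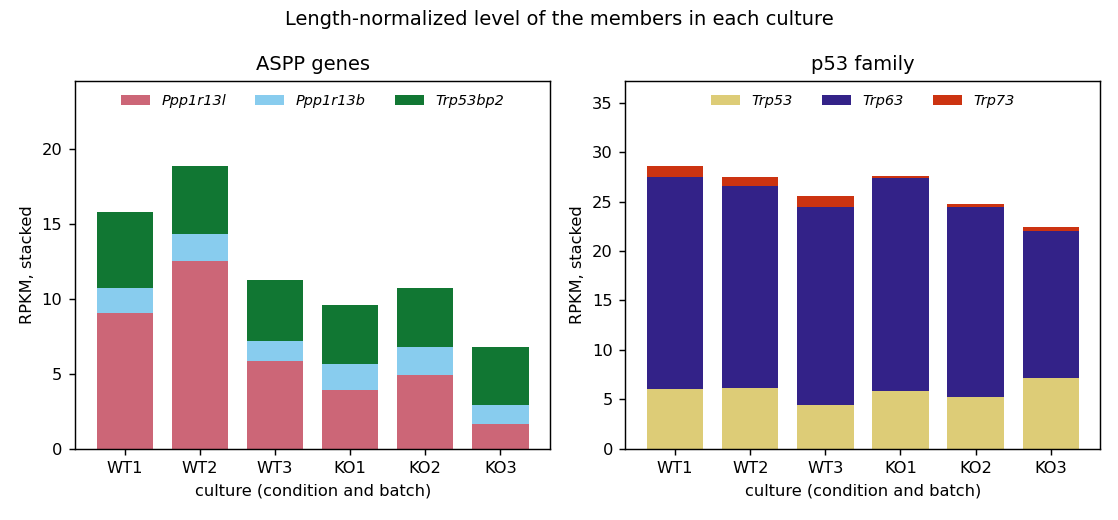
RPKM of the ASPP genes (left) and the p53 family (right), stacked for each culture, named by condition and batch. The *Ppp1r13l* part is smaller in each iASPP-KO culture than in its paired iASPP-WT culture, *Trp63* fills most of the p53 family in all 6, and *Trp73* is a thin band of at most 1.13 RPKM.

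Around these genes, 114 genes in 4 lists were examined, of which 111 were tested: regulators of p53, transcriptional targets of p53, targets of p63 in keratinocytes, and binding partners of the ASPP proteins. The lists share some genes. Of 22 tested p53 regulators, 2 were higher in iASPP KO (9.09%, against 2.17% of all genes tested) and 1 was higher in iASPP WT (4.55%, against 1.95%). The median log2 fold change of the list was −0.01, beside 0.01 over all genes tested. *Mdm2*, whose product marks p53 for degradation, rose in iASPP KO with 237 ± 75.2 against 145 ± 71.8 CPM (SD, n = 3), a log2 change of 0.79 (standard error 0.13, adjusted p of 0.0118 by edgeR). It was higher in iASPP KO in each batch, by 0.74, 0.51 and 1.13. *Trp53inp1*, whose product promotes p53 phosphorylation, had 737 ± 68.8 against 439 ± 97.0 CPM, a change of 0.77 (standard error 0.15, adjusted p of 0.0229). *Chek1*, the gene of the checkpoint kinase CHK1, was lower at 6.61 ± 4.38 against 14.1 ± 6.84 CPM, a change of −1.18 (standard error 0.23, adjusted p of 0.0215), and that call was lost without batch 1 or without batch 2.

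Among 32 p53 targets, all tested, 5 were higher in iASPP KO (15.6%, against 2.17%). None was higher in iASPP WT by edgeR or DESeq2. Of the 32, 10 had an unadjusted p under 0.05 in either direction by edgeR, beside 2498 of all 14916 genes tested. The median log2 fold change was 0.19. *Mdm2* and *Trp53inp1* belong to this list too. *Cdkn1a*, the gene of the cell-cycle inhibitor p21, had 78.6, 103 and 66.5 CPM in the iASPP-WT cultures and 128, 151 and 105 CPM after tamoxifen. It was higher in iASPP KO in every batch, by 0.64 on the log2 scale (standard error 0.11, adjusted p of 0.0138 by edgeR). *Plk3*, a stress-response kinase, was 0.83 higher (standard error 0.11, adjusted p of 0.00398) and changed by 0.80, 0.84 and 0.85 in the 3 batches. *Gadd45a*, induced by DNA damage, was 0.60 higher (standard error 0.14, adjusted p of 0.0490). Leaving out batch 1 or batch 2 took 2 genes, *Cdkn1a* and *Gadd45a*, below the threshold and left 3 calls. In these fits 169 of 15437 and 174 of 15236 genes tested were called higher in iASPP KO.

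Among 39 p63 targets, all tested, 3 were higher in iASPP WT (7.69%, against 1.95%). None was higher in iASPP KO by edgeR, and 1 was by DESeq2. Of the 39, 10 had an unadjusted p under 0.05 in either direction by edgeR, beside 2498 of all 14916 genes tested. The median log2 fold change was −0.07. These 39 genes do not stand for all that p63 binds. From its own map of p63 binding, the paper reports that bound genes rose in iASPP KO more often than expressed genes in general. The Notch ligand gene *Jag2* fell by 1.00 on the log2 scale (standard error 0.18, adjusted p of 0.0157), by 1.35, 1.26 and 0.38 in the 3 batches. *Hells*, a chromatin remodelling helicase, fell by 1.07 (standard error 0.18, adjusted p of 0.00975), and *Egfr*, the epidermal growth factor receptor, by 0.48 (standard error 0.11, adjusted p of 0.0400). The *Egfr* call was lost without batch 1 (adjusted p of 0.102 by edgeR) and without batch 2 (0.280), and the *Jag2* call without batch 2 (0.0805). The basal keratin genes did not pass: *Krt5* changed by −0.06 from 5202 CPM and *Krt14* by −0.02 from 16134 CPM. Without batch 3 the list had 12 genes higher in iASPP WT and 3 higher in iASPP KO. In that fit calls rose over the whole table, to 662 and 793 of 15261 genes tested. Without batch 2 the list had 1 gene higher in iASPP WT, *Hells*, where 117 of 15236 genes tested were.

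The ASPP partners include protein phosphatase 1 subunits, RASSF proteins and AP1 and NF-κB subunits. Of 22 tested, 1 was higher in iASPP KO (4.55%, against 2.17%) by edgeR. None was higher in iASPP WT by edgeR, and 1 was by DESeq2. Of the 22, 7 had an unadjusted p under 0.05 by edgeR, beside 2498 of all 14916 genes tested. The median was −0.01. The gene that passed was *Junb*, an AP1 subunit, at 488 ± 114 against 344 ± 82.3 CPM (SD, n = 3), a log2 change of 0.50 (standard error 0.11, adjusted p of 0.0296). Its call was lost without batch 1 or without batch 2.

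**Figure D5:**
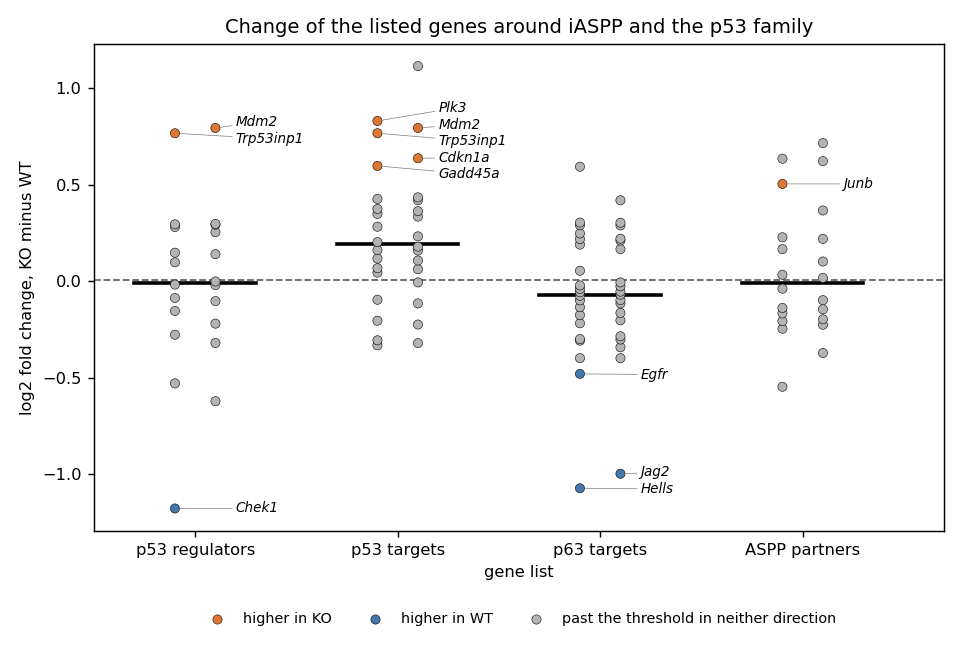
Log2 fold change (KO minus WT) of each tested gene in the 4 lists, with black bars at the list medians and a dashed line at the median of all genes tested (0.01). The named points passed the threshold: 5 p53 targets are higher in iASPP KO, and 3 p63 targets are higher in iASPP WT.

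The genes next to *Ppp1r13l* did not pass the threshold. Of 19 gene names within 100 kb of it, 9 were tested, and 0 were called by edgeR, 0 by DESeq2 and 0 at an unadjusted p under 0.05. Over all genes tested edgeR called 4.12% in either direction, and 2498 of 14916 had an unadjusted p under 0.05. The 0 calls among 9 genes therefore do not set this locus apart. These 9 genes changed by −0.52 to 0.38 on the log2 scale, and the median was 0.07.

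Genes whose level followed each of the 6 most closely over the 6 libraries were found by Pearson correlation of log2 CPM among 10146 or 10147 genes with a mean of at least 5 CPM. The libraries share batches, so these values are descriptions. *Ppp1r13l* was followed by *Uba6* (0.993), *Zfp110* (0.990) and *Sf1* (0.989), and *Trp73* by *Lnpk* (0.996), *Ice2* (0.992) and *Mtmr9* (0.991). *Trp63* was followed by *Mfn1* (0.997), *Copg1* (0.994) and *Arhgef37* (0.988), and *Trp53* less closely by *Itpk1* (0.982), *Lzts2* (0.9754) and *Becn1* (0.9749). For *Ppp1r13b* they were *Nppb* (0.999), *Rps6ka6* (0.997) and *Pik3c2a* (0.997), and for *Trp53bp2* *Anxa3* (0.995), *Ttc14* (0.988) and *Lama3* (0.987).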

How the data were processed

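RNA was depleted of ribosomal RNA and sequenced as single reads of 42 bases. The authors trimmed adapters with cutadapt 2.10, aligned to GRCm38 with STAR 2.7.3 and deposited unnormalized read counts per gene name, made with featureCounts 2.0.0 on GENCODE vM25 exons, by strand. A further deposited table holds the authors' own comparison (fold changes and p-values) and was not used.

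Samples were grouped by their titles. The counts went through edgeR 4.0.16 (R 4.3.3) with filterByExpr, TMM factors (0.916 to 1.11) and a glmQLFit and glmQLFTest model of batch and condition, and p-values were adjusted by Benjamini-Hochberg and called under 0.05. There were 2 residual and 8.17 prior degrees of freedom and a common dispersion of 0.0627. The standard error is the absolute log2 fold change over the square root of F. CPM and RPKM use TMM effective library sizes, RPKM the merged exon length of the count table, and within-batch changes log2 CPM with a prior count of 2.

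Batch pairs come from the design, in which each batch was divided. Over 5335 genes, deviations from the group means correlated at 0.566, 0.733 and 0.761 within batches and at −0.711 to 0.357 between them. Cultures of a group differed far beyond sampling noise (chi-square per gene of 39.7 to 173). The labels do not say whether batches are separate litters, so p-values measure the spread between these cultures.

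The 6 genes and the lists were chosen with earlier results of these data known. Named are the 6 genes; of each list the genes past the threshold, at most 6 per direction; *Cdkn1a*, *Mdm2*, *Krt5* and *Krt14* whatever their values; called genes within 100 kb of *Ppp1r13l*; and the 3 genes most correlated with each of the 6. Marker genes and *Atr* were named after their values were seen. Alternatives were no batch term, DESeq2 1.42.0, RLE and upper-quartile scaling, no low-count filter, at least 10 counts in every library, robust dispersion, each batch left out, and for levels CPM without exon length and library totals. Of the listed genes, *Cdkn2a* and *Ccdc85a* were not tested and *Trp53rk* was not matched by name, and 1 gene is not reported here. Python 3.11.15, pandas 2.3.3, numpy 2.4.6 and matplotlib 3.10.9 made tables and figures.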

Additional observations from a re-analysis of the deposited data

How the results depend on the processing

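Without the batch term (no replicate block) edgeR called 0 genes in either direction, where 360 and 331 had an unadjusted p under 0.05, and so 0 of the 6 genes and 0 of each list. *Ppp1r13l* then changed by −1.38 and *Trp73* by −1.65. Without a low-count filter the calls were 624 (iASPP KO) and 491 (iASPP WT). Leaving out 1 batch at a time gave 169 to 793 and 117 to 662, both highest without batch 3, and 1 to 2 calls among the 6 genes.

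The *Ppp1r13l* call held under every alternative with a batch term, at −1.57 to −1.27. *Trp73* ranged from −1.82 to −1.52 over batches left out, and lost its call without batch 1 or batch 2. Near 0, leaving out a batch moved *Ppp1r13b* between −0.015 and 0.036, negative at −0.0078 and −0.015 without batches 1 and 2, *Trp53* between −0.15 (without batch 3) and 0.32, and *Krt14* between −0.068 and 0.048 (without batch 1).

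Among p53 regulators, 2 genes were higher in iASPP WT under DESeq2, RLE and upper-quartile scaling, no filter, at least 10 counts and robust dispersion, *Atr* joining *Chek1*, and 0 to 2 with a batch left out. p53 targets higher in iASPP KO numbered 3 to 5 with a batch left out. For p63 targets, 1 gene was higher in iASPP KO under DESeq2 and without a filter, and 0 to 3 with a batch left out, with 5 higher in iASPP WT without a filter and 1 to 12 with a batch left out. For ASPP partners DESeq2 called 2 upward in iASPP KO and 1 downward, no filter 4 and 1, and a batch left out 0 to 4 and 0 to 1.

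In CPM without exon length, *Ppp1r13b* held 21.2% of the ASPP genes in iASPP KO and 13.2% in iASPP WT, *Trp53* 13.9% and 11.1% of the p53 family, *Trp63* 85.1% and 86.0%, and *Trp73* 2.90% in iASPP WT. With library totals *Trp53bp2* had 3.82 RPKM in iASPP KO. The cause of these changes was not tested, other than that longer exons raise a gene's CPM.

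Depth limited *Trp73* most, with 34 to 56 counts per iASPP-KO library. Groups of 3 were too small for a test of single outlying cultures.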
